A study of Homo sapiens with 7 samples.

Results

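The cytosolic and endosomal sensors of foreign nucleic acid and the proteins that pass their signal on were examined in HEK-293 cells, an established human embryonic kidney line that carries adenovirus DNA. The 10 genes were taken from a list of names, drawn up with earlier results of these data known: the RNA helicases RIGI (formerly DDX58), IFIH1 and DHX58, the endosomal receptor TLR3, the DNA sensor CGAS, the adaptors MAVS and STING1, the kinase TBK1 and the transcription factors IRF3 and IRF7. All 10 were found among the 19978 genes of the deposited table, and all 10 were among the 14863 genes that passed the filter on low counts. Poly(A) RNA was sequenced after 48 h in 3 groups that all received DMSO. The control was medium of pH 7.4 (2 samples), acidosis was medium of pH 6.6 (3 samples), and the third group received SRPIN340, an inhibitor of SR protein kinases, at 10 µM in medium of pH 7.4 (2 samples). The protocol text of the labels spells the compound SRPIN 350, whereas the sample titles and the methods give SRPIN340, the name used here. The acid treatment concerns only the pH of the medium, the compound was given at a single dose, and a single cell line was used. Each sample is a biological repeat according to the methods of the study.

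RIG-I (the product of RIGI) and MDA5 (the product of IFIH1) bind double-stranded RNA in the cytosol and signal through MAVS on the mitochondrial surface, while LGP2 (the product of DHX58) modulates them. TLR3 detects double-stranded RNA in endosomes, and cGAS answers cytosolic DNA with a cyclic dinucleotide that activates STING. These routes converge on TBK1, which phosphorylates IRF3 and IRF7, the factors that switch on type I interferon genes. RIGI, IFIH1, DHX58, TLR3 and IRF7 are known as genes that interferon itself induces, whereas MAVS, TBK1 and IRF3 are known as broadly expressed. CGAS and STING1 are placed in neither group here, so the groups do not cover all the genes examined. Whether induction by interferon separates the genes that fell from those that did not was not tested.

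Library totals ranged from 21788457 to 24110460 estimated counts in the control and SRPIN340 samples and from 13615816 to 21370143 in acidosis, so genes of low expression are measured less precisely in acidosis. The composition of the libraries differed as well, with the 100 most abundant genes holding 15.2% to 15.4% of a library at pH 7.4, with or without SRPIN340, and 24.1% to 24.8% of an acidosis library. Levels are given as CPM, counts scaled to a common library size with TMM factors, which sets the median log2 fold change of all tested genes in acidosis at -0.05. With scaling by the total count alone this median was -0.63, so differences in acidosis are relative to the typical gene. Of 5 genes typical of HEK-293 cells, LHX1 (13.7 to 18.5 CPM), NEFM, INA and CDH2 (191 to 259 CPM) were found in every sample. NEFM was at 22.6 to 23.1 CPM in control, 33.2 to 33.6 CPM with SRPIN340 and 69.5 to 73.5 CPM in acidosis. INA was at 25.6 to 31.9 CPM in control, 19.5 to 20.9 CPM with SRPIN340 and 17.3 to 18.5 CPM in acidosis. PAX2 was at 5.31 to 7.06 CPM at pH 7.4 and at 1.19 to 2.48 CPM in acidosis. Among markers of other cell types, CD3E was at 0 in all samples, while PTPRC, CD14, PECAM1 and DCN stayed at or below 2.58 CPM. PTPRC (at most 0.281 CPM at pH 7.4 and 0.602 to 0.826 CPM in acidosis), CD14 (at most 0.684 and 1.10 to 2.58 CPM) and LUM (7.56 to 12.2 and 22.0 to 28.7 CPM) were higher in all acidosis samples, and the part of this in the results was not tested. In such bulk samples, fewer cells that express a gene and less of its RNA per cell cannot be told apart.

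Of the 10 genes, 5 had a RefSeq promoter window (GRCh38.p14) of 250 bases before and 50 after the gene's start: RIGI, IFIH1, TLR3, MAVS and TBK1. The windows were searched on both strands for GAAANNGAAA, the core of the element that the interferon-activated complex binds, and for TTCNNNGAA, the palindrome of the gamma-interferon activated site. GAAANNGAAA was found in 3.57% of all 35116 windows and in 2 of the 5, those of IFIH1 and TLR3. TTCNNNGAA was found in 7.66% of all windows and, among the 5, in that of TLR3. A form with a single base between the half-sites, GAAANGAAA, was added after the windows had been read, and it was found in 3.12% of all windows and in that of RIGI. The 250 bases before the start of RIGI (chr9:32526197-32526446, minus strand) and IFIH1 (chr2:162318685-162318934, minus strand), the cytosolic RNA receptors that fell in both comparisons with control, are shown 5′ to 3′ on the gene's strand, with matches in capitals.
RIGI: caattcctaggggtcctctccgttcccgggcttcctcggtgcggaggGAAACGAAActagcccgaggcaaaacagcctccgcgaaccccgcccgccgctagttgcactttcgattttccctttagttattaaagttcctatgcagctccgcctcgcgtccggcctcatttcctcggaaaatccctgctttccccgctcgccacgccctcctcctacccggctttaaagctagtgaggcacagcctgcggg
IFIH1: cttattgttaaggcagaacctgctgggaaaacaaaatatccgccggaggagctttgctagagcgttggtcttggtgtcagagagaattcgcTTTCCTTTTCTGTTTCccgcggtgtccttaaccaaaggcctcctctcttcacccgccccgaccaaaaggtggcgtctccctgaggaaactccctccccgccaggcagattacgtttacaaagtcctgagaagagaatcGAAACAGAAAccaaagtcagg
In the window of RIGI the match lies at -203 to -195 from the start. The IFIH1 window holds overlapping matches at -159 to -150 and -153 to -144, which read as the reverse complement, and another at -21 to -12. The TLR3 window, which overlaps the first exon of another annotated TLR3 transcript and is not printed, holds GAAANNGAAA at -4 to 6 and TTCNNNGAA at -178 to -170 and at -50 to -42. None of these letters were found in the windows of MAVS and TBK1. A match describes the sequence and does not show binding.

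The first comparison asked which sensing genes differed after 48 h at pH 6.6. All 3 cytosolic RNA helicases, TLR3 and IRF7 were lower in acidosis than in control, by 2.54-fold (IRF7) to 10.6-fold (DHX58). STING1 and IRF3 fell by less, and MAVS, TBK1 and CGAS did not pass the test. A gene is said to have passed at a Benjamini-Hochberg adjusted p under 0.05 over all tested genes, and to be called when its log2 fold change was also over 1 in size. Of the 10 genes, 5 were called lower, against 19.1% of all tested genes, and 0 were called higher, against 14.4%. With the adjusted p alone, 7 of 10 passed as lower (34.2% of all tested genes) and 0 as higher (32.5%). The median log2 fold change of the 10 genes was -1.06, and all 10 fitted values were negative. In edgeR 0 genes were also higher at an unadjusted p under 0.05. DESeq2 called 5 lower and 0 higher, beside 16.8% and 13.7% of all tested genes. With any single acidosis sample left out, edgeR also called 5 lower and 0 higher. With the total count alone as scaling, 7 were called lower and 0 higher, while the shares of all tested genes moved to 35% lower and 5.48% higher.

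The second comparison asked the same for the SR protein kinase inhibitor. SRPIN340 gave a shorter list: RIGI fell 2.98-fold and IRF7 fell 3.39-fold, and IFIH1 fell 1.60-fold at the edge of the threshold. The 2 genes called lower stand against 0.195% of all tested genes, and 0 were called higher, against 0.128%. With the adjusted p alone, 3 of 10 passed as lower (1.53% of all tested genes) and 0 as higher (0.767%). In edgeR 1 gene, MAVS, was higher at an unadjusted p under 0.05 (8.15% of all tested genes). DESeq2 called 2 lower and 0 higher, beside 0.213% and 0.145% of all tested genes. Without SRPIN340 sample 1, 1 gene was called lower. The median log2 fold change of the 10 genes was -0.49, and 6 of the 10 fitted values were negative. Both comparisons use the same 2 control samples, so their results are not independent of each other.

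**Figure D1:**
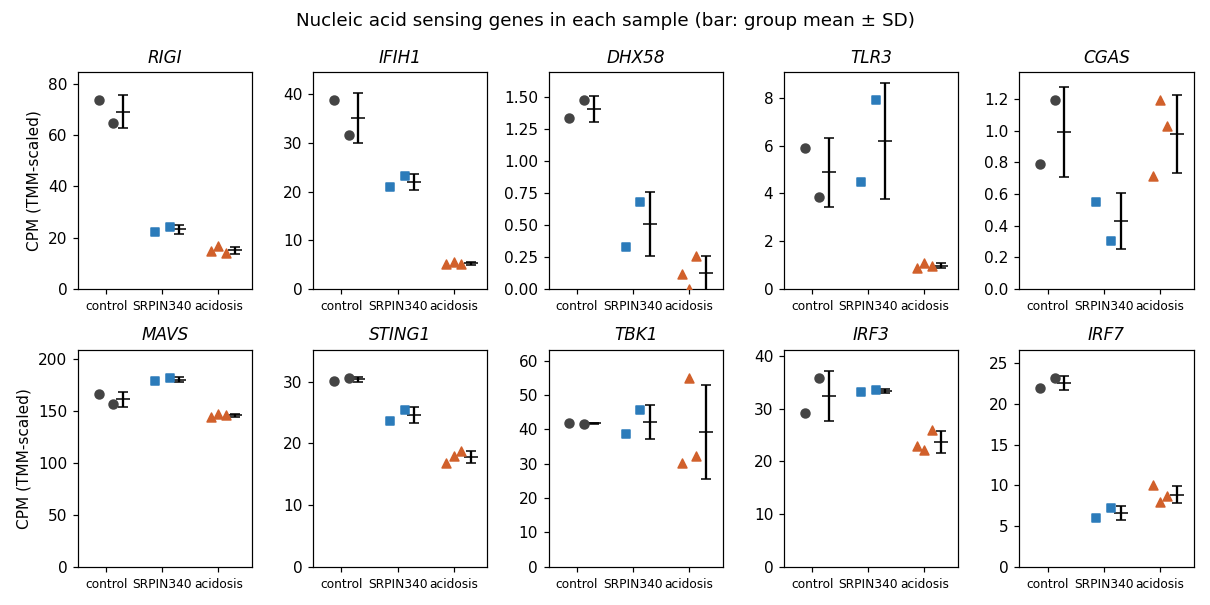
Level of each of the 10 genes (CPM after TMM scaling, linear axes from 0, 1 panel per gene) in every control (circles), SRPIN340 (squares) and acidosis (triangles) sample, with bars for the group mean ± SD. RIGI, IFIH1, DHX58, STING1 and IRF7 are lower in every treated sample than in either control sample, whereas the single high acidosis sample of TBK1 stands at 55.0 CPM. The share of all tested genes with such a separation was not counted.

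**Figure D2:**
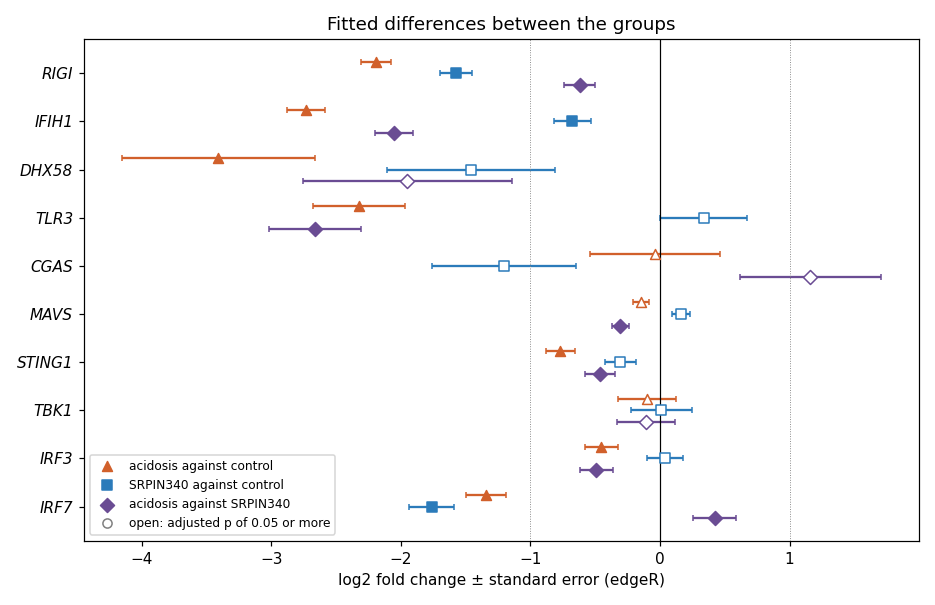
Fitted log2 fold change ± standard error (edgeR) of the 10 genes for each treatment against control and for the treatments against each other, with open symbols for an adjusted p of 0.05 or more and dotted lines at the fold limit. RIGI and IRF7 lie below -1 in both comparisons with control, and TLR3 lies at -2.32 in acidosis and at 0.34 with SRPIN340.

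RIGI (ENSG00000107201.11, GRCh38 chr9:32455302-32526208, minus strand), the receptor of short double-stranded RNA with 5′-triphosphate ends, had the highest level per transcript length of the RNA sensors in control. Its level was 73.5 and 64.7 CPM in the control samples, 22.1 and 24.3 CPM with SRPIN340, and 14.7, 16.6 and 14.1 CPM in acidosis. The 3 groups did not overlap. The log2 fold change was -2.19 ± 0.117 (SE; adjusted p = 2.4e-07) in acidosis and -1.57 ± 0.126 (adjusted p = 0.000878) with SRPIN340. Acidosis was lower than SRPIN340 by a further 0.62 on the log2 scale (-0.62 ± 0.121, adjusted p = 0.00124). RIGI shares 4471 bases of its canonical exons with ENSG00000288684, a protein-coding gene model on the same strand, between which the quantification had to divide the reads. That model was listed at 0.344 to 3.11 CPM. With both summed, an alternative added after the data had been seen, the log2 fold change of RIGI was -2.12 in acidosis and -1.45 with SRPIN340 (adjusted p = 0.0023).

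IFIH1 (ENSG00000115267.10, chr2:162267074-162318684, minus strand), which encodes the receptor of long double-stranded RNA, fell further than RIGI in acidosis and less with SRPIN340. It was measured at 38.7 and 31.5 CPM in control, 20.8 and 23.2 CPM with SRPIN340, and 5.23, 5.60 and 5.07 CPM in acidosis. Again the groups were separate. The level in acidosis was 15.1% of control (log2 fold change -2.73 ± 0.147, adjusted p = 2.48e-07). With SRPIN340 the log2 fold change was -0.68 ± 0.145 (adjusted p = 0.0494). This last result is at the limit: the adjusted p was 0.252 without control sample 1, 0.105 without control sample 2, 0.339 without SRPIN340 sample 1, 0.278 without SRPIN340 sample 2, 0.0594 without acidosis sample 1 and 0.0623 without acidosis sample 3. It was 0.0506 with RLE size factors, 0.0549 with the total count alone and 0.00838 with DESeq2.

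DHX58 (ENSG00000108771.13, chr17:42101404-42112714, minus strand), the helicase that lacks signaling domains of its own, was close to the detection limit. Its control samples were at 1.33 and 1.47 CPM, the SRPIN340 samples at 0.332 and 0.683 CPM and the acidosis samples at 0.119, 0 and 0.258 CPM. All treated samples were below both controls. The pooled counts were 79 in control and 5 in acidosis, which gives a control to acidosis ratio of 11.1 (exact 95% interval 4.54 to 35.0, counting error only). The fitted log2 fold change was -3.41 ± 0.745 (adjusted p = 0.00255), and without acidosis sample 3 it was -4.21. With SRPIN340, 79 counts stood against 27, a ratio of 2.78 (1.78 to 4.48), and the log2 fold change of -1.46 ± 0.651 did not pass (adjusted p = 0.284). It was -1.03 without SRPIN340 sample 1 and -2.06 without SRPIN340 sample 2, and passed in neither case.

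TLR3 (ENSG00000164342.14, chr4:186068911-186088073, plus strand), the endosomal receptor of double-stranded RNA, differed between the treatments. It stood at 5.91 and 3.86 CPM in control, 4.46 and 7.90 CPM with SRPIN340 and 0.891, 1.10 and 0.946 CPM in acidosis. The control and SRPIN340 samples interleaved, and all acidosis samples lay below them. In acidosis the log2 fold change was -2.32 ± 0.358 (adjusted p = 0.000277), and with SRPIN340 it was 0.34 ± 0.335 (95% interval -0.42 to 1.09, adjusted p = 0.667). Between the treatments themselves TLR3 differed by -2.66 ± 0.356 (adjusted p = 0.000102), 6.32-fold lower in acidosis than with SRPIN340.

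CGAS (ENSG00000164430.17, chr6:73413515-73452297, minus strand), the cytosolic DNA sensor, was near the detection limit in every group. It gave 0.792 and 1.19 CPM in control, 0.553 and 0.304 CPM with SRPIN340, and 0.713, 1.19 and 1.03 CPM in acidosis. The acidosis samples spanned the range of the controls, and both SRPIN340 samples were below it. The control to acidosis ratio of pooled counts was 1.06 (56 against 37 counts, exact 95% interval 0.687 to 1.65), and the fitted log2 fold change was -0.04 ± 0.499 (95% interval -1.16 to 1.08, adjusted p = 0.948). For SRPIN340 the ratio was 2.31 (56 against 23 counts, 1.40 to 3.94), while the fit, which includes the spread between samples, gave -1.20 ± 0.555 (adjusted p = 0.302).

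MAVS and STING1 are the adaptors of the RNA and DNA routes. MAVS (ENSG00000088888.18, chr20:3846799-3876123, plus strand), which relays the signal of RIG-I and MDA5, had the most counts of the 10 genes. It was at 166 and 156 CPM in control, 179 and 182 CPM with SRPIN340 and 144, 147 and 146 CPM in acidosis. Groups were separate but close: the log2 fold change was -0.15 ± 0.064 in acidosis (adjusted p = 0.069) and 0.16 ± 0.070 with SRPIN340 (adjusted p = 0.269). Without a filter on low counts the acidosis value passed (adjusted p = 0.0494), and with the total count alone it was -0.72 (adjusted p = 4.78e-06). STING1 (ENSG00000184584.14, chr5:139475533-139482935, minus strand), the adaptor downstream of cGAS in the endoplasmic reticulum, was at 30.1 and 30.6 CPM in control, 23.7 and 25.5 CPM with SRPIN340 and 16.8, 18.0 and 18.7 CPM in acidosis. It fell 1.70-fold in acidosis (log2 fold change -0.77 ± 0.112, adjusted p = 0.000192), under the fold limit. The SRPIN340 samples lay between the other groups, and the log2 fold change of -0.31 ± 0.120 did not pass (adjusted p = 0.228).

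TBK1 (ENSG00000183735.11, chr12:64452090-64502114, plus strand), the kinase at which the routes meet, showed no difference that passed. Both control samples were at 41.8 and 41.7 CPM and the SRPIN340 samples at 38.6 and 45.6 CPM. In acidosis 2 samples were at 30.3 and 32.3 CPM, below all others, and acidosis sample 2 was at 55.0 CPM, above all others. The log2 fold change was -0.10 ± 0.222 in acidosis (95% interval -0.60 to 0.40, adjusted p = 0.711) and 0.01 ± 0.238 with SRPIN340 (-0.52 to 0.55, adjusted p = 0.990). The acidosis value rests on that single library: without acidosis sample 2 it was -0.41 (adjusted p = 0.0108), and without sample 1 or sample 3 it was 0.064 or 0.019. Acidosis sample 2 also had the smallest total count.

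IRF3 (ENSG00000126456.16, chr19:49659569-49665875, minus strand), the constitutive factor that TBK1 activates, was 1.37-fold lower in acidosis. Its level was 29.1 and 35.8 CPM in control, 33.1 and 33.6 CPM with SRPIN340 and 23.0, 22.1 and 26.1 CPM in acidosis. The acidosis samples were below the rest, and the SRPIN340 samples lay between the controls. The log2 fold change was -0.45 ± 0.127 in acidosis (adjusted p = 0.00991) and 0.04 ± 0.136 with SRPIN340 (adjusted p = 0.924). Without control sample 2, the higher of the controls, the acidosis value was -0.32 and did not pass (adjusted p = 0.0983). IRF3 shares 734 exonic bases with BCL2L12 on the opposite strand, and the strand setting of the quantification is not given in the sources used here. BCL2L12 was at 15.6 and 27.6 CPM in control and at 10.7 to 15.9 CPM in acidosis (log2 fold change -0.75 ± 0.246, adjusted p = 0.0217).

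IRF7 (ENSG00000185507.21, chr11:612553-615983, minus strand), the interferon-inducible factor that amplifies the response, was lowest with SRPIN340. Control samples were at 22.0 and 23.2 CPM, SRPIN340 samples at 6.04 and 7.25 CPM and acidosis samples at 9.98, 7.90 and 8.68 CPM. The 3 groups did not overlap, and unlike RIGI, IFIH1 and DHX58 the acidosis samples stood between the others. The log2 fold change was -1.76 ± 0.175 with SRPIN340 (adjusted p = 0.0023) and -1.34 ± 0.157 in acidosis (adjusted p = 4.2e-05). Without SRPIN340 sample 1 the SRPIN340 value was -1.64 and did not pass (adjusted p = 0.0597), which left RIGI as the only gene of the 10 called with SRPIN340. Acidosis was higher than SRPIN340 by 0.42 ± 0.167 (adjusted p = 0.0477), a difference that turned to -0.19 with the total count alone and that did not pass with DESeq2 (adjusted p = 0.0704) or without any single sample other than acidosis sample 2, for which adjusted p was 0.0263; without the others it ranged from 0.0622 to 0.291.

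**Figure D3:**
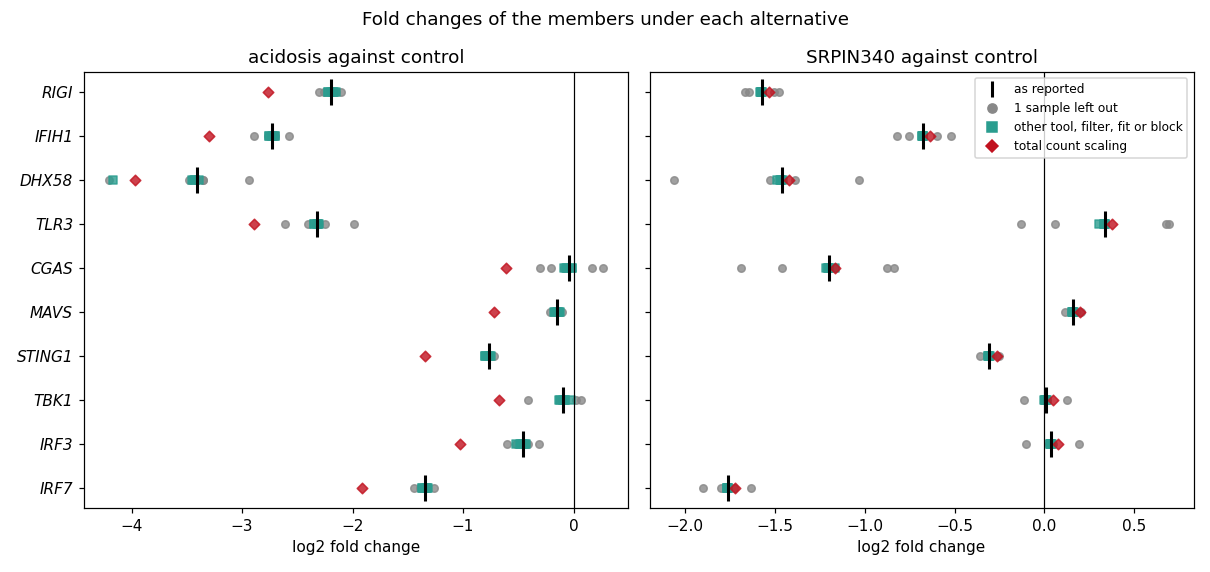
Log2 fold change of the 10 genes in acidosis (left) and with SRPIN340 (right) as reported (black bars), with each sample left out (grey circles), with another tool, filter, fit or replicate block (green squares) and with total count scaling (red diamonds). Scaling by total count moves the values in acidosis to the left by about the shift of the median gene (from -0.05 to -0.63) and changes those with SRPIN340 little.

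The treatments were also compared directly. Of the 10 genes, 2 were called lower in acidosis than with SRPIN340, IFIH1 (log2 fold change -2.05 ± 0.148) and TLR3. This share was close to the 19.7% of all tested genes called lower, and 0 were called higher, against 14.9%. DESeq2 also called 2 lower and 0 higher, beside 17.1% and 13.8% of all tested genes. Without acidosis sample 3, 3 were called lower, beside 19.9% of all tested genes. With the total count alone 6 were called lower, RIGI (-1.23), DHX58, IRF3 (-1.11) and STING1 (-1.08) in addition, while the share of all tested genes rose to 37%. With the adjusted p alone, 6 passed as lower (MAVS, RIGI, IFIH1, IRF3, TLR3 and STING1; 35% of all tested genes) and 1 as higher (IRF7; 32.8%). On the log2 scale MAVS was at -0.31 ± 0.064 (adjusted p = 0.00188), IRF3 was at -0.49 ± 0.127 (adjusted p = 0.00637) and STING1 at -0.46 ± 0.113 (adjusted p = 0.00483). The STING1 difference did not pass without SRPIN340 sample 2 (-0.41, adjusted p = 0.053). The DHX58 difference of -1.95 ± 0.807 did not pass (adjusted p = 0.0549), and it passed without acidosis sample 3 (-2.75, adjusted p = 0.031) and with the total count alone (-2.54, adjusted p = 0.0154). It was smaller without SRPIN340 sample 2 (-1.35, adjusted p = 0.299) and without acidosis sample 2 (-1.47, adjusted p = 0.106). CGAS was at 1.16 ± 0.541 (adjusted p = 0.082) and TBK1 at -0.11 ± 0.222 (adjusted p = 0.677). TBK1 passed without acidosis sample 2 (-0.43, adjusted p = 0.00936) and with the total count alone (-0.72, adjusted p = 0.0163).

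To compare levels between genes, CPM were divided by the length of the Ensembl canonical transcript in kb. Which transcripts of a gene were expressed was not examined, so these levels per length are approximate. In control, IRF3 was highest at 18.3 to 22.5 CPM per kb. RIGI (14.0 to 15.9), STING1 (13.9 to 14.1), TBK1 (13.8 in both samples) and MAVS (13.3 to 14.1) followed. The ranges of STING1 and RIGI overlapped, and the range of MAVS overlapped those of RIGI, STING1 and TBK1, while RIGI and STING1 were above TBK1 in both samples. IRF3 was above all 4 in both samples. IRF7 (11.4 to 12.0 CPM per kb) and IFIH1 (8.80 to 10.8) came next without overlap, and TLR3 (0.642 to 0.982), DHX58 (0.514 to 0.569) and CGAS (0.248 to 0.373) were far below. In acidosis IRF3 (13.9 to 16.3 CPM per kb), TBK1 (10.0 to 18.2) and MAVS (12.3 to 12.5) were at the top, with TBK1 spanning the others. STING1 (7.74 to 8.64), IRF7 (4.11 to 5.19), RIGI (3.05 to 3.59) and IFIH1 (1.42 to 1.56) followed as separate steps, and CGAS (0.223 to 0.373), TLR3 (0.148 to 0.183) and DHX58 (0 to 0.0996) were lowest. With SRPIN340 the level of IRF7 (3.14 to 3.77 CPM per kb) was below those of RIGI (4.77 to 5.26) and IFIH1 (5.82 to 6.47), whereas IRF3 (20.8 to 21.1), MAVS (15.2 to 15.5), TBK1 (12.8 to 15.1) and STING1 (10.9 to 11.7) stayed above them. RIGI thus had a level per length beside those of the adaptors and TBK1 in control and below all of them in both treatments.

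For the genes called in both comparisons with control, the tested genes with the most similar profile over the 7 samples were looked up by Pearson correlation of log2 CPM. For RIGI these were IFITM1 (r = 0.997), UBXN8 (r = 0.994) and PPP1R7 (r = 0.993). For IRF7 they were IRF9 (r = 0.989), ANGPT2 (r = 0.987) and HNRNPAB (r = 0.982). The points share their libraries and fall into 3 groups, and so the values describe the profiles only.

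The surrounding pathway was described with 6 lists of further genes, whose counts in acidosis are read against the 19.1% of all tested genes called lower and the 14.4% called higher. In the list of RIG-I-like receptor and MAVS regulators, 8 of 26 genes were called lower (30.8%) and 5 higher (19.2%). RIPK1, a kinase of death receptor signaling, was at 50.2 to 51.8 CPM in control and 8.77 to 12.9 CPM in acidosis (log2 fold change -2.22). The mitochondrial regulator NLRX1 (-2.04) and the adaptor TRADD (-1.83) were also called lower. DDX3X, an RNA helicase, was at 822 to 836 CPM in control and 3093 to 3279 CPM in acidosis (1.95), and the kinase RIOK3 (1.92) and the autophagy protein ATG12 (1.81) were called higher. The median of the list was 0.02, and with the total count alone it was -0.56.

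Of 13 genes of the TBK1 and IKK complexes, 5 were called higher (38.5%) and 1 lower (7.69%) in acidosis. The 2 largest rises were those of the inhibitors of NF-κB signaling TNFAIP3 (9.16 to 9.69 CPM in control and 133 to 156 CPM in acidosis, log2 fold change 3.93) and NFKBIA (17.9 to 18.5 and 147 to 158 CPM, 3.05). RELA, a subunit of NF-κB, was also called higher (1.61). IKBKE, the kinase most like TBK1, was called lower, at 3.21 to 3.51 CPM in control and 0.534 to 1.01 CPM in acidosis (-2.20). The median of the list was 0.31 and turned to -0.26 with the total count alone.

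Among 11 tested genes of 13 listed for endosomal Toll-like receptors and adaptors, 2 were called in each direction in acidosis (18.2%), close to the shares of all tested genes. MYD88, the adaptor of most Toll-like receptors but not of TLR3, was at 22.1 and 22.3 CPM in control and 2.26 to 3.21 CPM in acidosis (log2 fold change -3.05), and the adaptor TIRAP was at -1.46. HSP90B1, the chaperone that folds Toll-like receptors (1.93), and the kinase IRAK1 (1.32) were called higher. The list median of 0.44 turned to -0.14 with the total count alone. TLR8 and TLR9 had too few counts to be tested. With SRPIN340, 0 genes of the lists of RIG-I-like receptor and MAVS regulators, TBK1 and IKK complexes and endosomal receptors were called by edgeR or DESeq2. At an unadjusted p under 0.05 in edgeR, 4 of the first list were lower and 2 higher, 0 of the second were lower and 1 higher, and 2 of the last were lower and 0 higher, beside 9.48% lower and 8.15% higher of all tested genes. With the adjusted p alone, PPP1CA (-0.65, adjusted p = 0.00702) and TRIM25 (-0.53, adjusted p = 0.0412) of the first list passed as lower, both named after their values had been seen. They were 2 of 26 genes, and 0 genes of the other 2 lists passed. Of all tested genes, 1.53% passed as lower and 0.767% as higher at this threshold.

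Of 25 tested genes of 27 listed for cytosolic DNA handling and STING partners, 4 were called lower (16%) and 1 higher (4%) in acidosis, both below the shares of all tested genes. IFI16, a nuclear and cytosolic DNA sensor, was at 173 and 143 CPM in control and 28.3 to 30.8 CPM in acidosis (log2 fold change -2.41). SAMHD1, which degrades dNTPs (-1.99), and the ubiquitin ligase TRIM56 (-1.72) fell as well, and BANF1, which binds DNA at the nuclear envelope, rose (1.33). The list median was -0.29, and with the total count alone it was -0.87. With SRPIN340, 0 of the 25 were called by edgeR or DESeq2, and 10 were lower (40%) and 1 higher (4%) at an unadjusted p under 0.05, beside 9.48% and 8.15% of all tested genes. With the adjusted p alone, 4 of the 25 passed as lower with SRPIN340 (beside 1.53% of all tested genes) and 0 as higher (0.767%). The 4 were IFI16 (-0.47, adjusted p = 0.0483), SAMHD1 (-0.60, adjusted p = 0.0323), XRCC6 (-0.43, adjusted p = 0.00973) and XRCC5 (-0.31, adjusted p = 0.0354). XRCC6 and XRCC5, the Ku subunits of DNA end joining, were named after their values had been seen. In acidosis XRCC6 was at 0.62 (adjusted p = 6.62e-06) and XRCC5 at -0.56 (adjusted p = 1.02e-05). AIM2 and TREX1 were not tested because of low counts.

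Genes of double-stranded RNA binding and decay were called with both treatments. Of 19 tested genes of 20 listed (ZBP1 was too low), 7 were called lower (36.8%) and 1 higher (5.26%) in acidosis, with a list median of -0.52. With SRPIN340, 3 were called lower (15.8%, beside 0.195% of all tested genes), all of them 2′-5′-oligoadenylate synthetases, enzymes that double-stranded RNA activates. OAS1 was at 38.7 and 32.0 CPM in control, 6.45 and 9.68 CPM with SRPIN340 and 1.84 to 3.53 CPM in acidosis (log2 fold change -2.13, adjusted p = 0.00601 with SRPIN340, and -3.69 in acidosis). OAS2 was at 17.7 and 15.3 CPM in control, 2.36 and 3.30 CPM with SRPIN340 and 0.688 to 1.54 CPM in acidosis (-2.54, adjusted p = 0.00424, and -3.84). OAS3 was at 241 and 206 CPM in control, 69.2 and 79.9 CPM with SRPIN340 and 53.5 to 57.9 CPM in acidosis (-1.59, adjusted p = 0.000463, and -2.00). In all 3 genes every treated sample was below both controls, and the share of all tested genes with this pattern was not counted. DESeq2 called 2 genes of this list lower with SRPIN340, beside 0.213% of all tested genes. In edgeR fewer were called without SRPIN340 sample 1, which leaves a single SRPIN340 sample.

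Of 11 tested genes of 17 listed as other IRF genes, interferons and their signaling complex, 2 were called lower in acidosis (18.2%, close to the share of all tested genes) and 0 higher (0 with DESeq2 and 1 at an unadjusted p under 0.05), with a list median of -0.48. Without acidosis sample 2, 4 were called lower, beside 19.3% of all tested genes. STAT2 was at 73.8 and 72.2 CPM in control and 29.6 to 30.0 CPM in acidosis (log2 fold change -1.30). IRF9, which binds DNA in a complex with STAT2, was the 1 gene of the list called lower with SRPIN340 (9.09%, beside 0.195% of all tested genes; -1.13, adjusted p = 0.00831) and passed under the fold limit in acidosis (-0.88, adjusted p = 0.000263). Its level was 45.3 and 48.7 CPM in control, 19.6 and 23.3 CPM with SRPIN340 and 22.7 to 29.3 CPM in acidosis, so that the treatments overlapped. With the adjusted p alone, 2 of the 11 passed as lower with SRPIN340 and 1 as higher, beside 1.53% and 0.767% of all tested genes. The list median with SRPIN340 was 0.02. Without control sample 2, SRPIN340 sample 1 or SRPIN340 sample 2, 0 genes of this list were called with SRPIN340, while 0.151%, 0.0527% and 0.119% of all tested genes were called lower. The interferon genes IFNB1, IFNL1, IFNL2, IFNL3, IFNE and IFNK had too few counts to be tested.

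**Figure D4:**
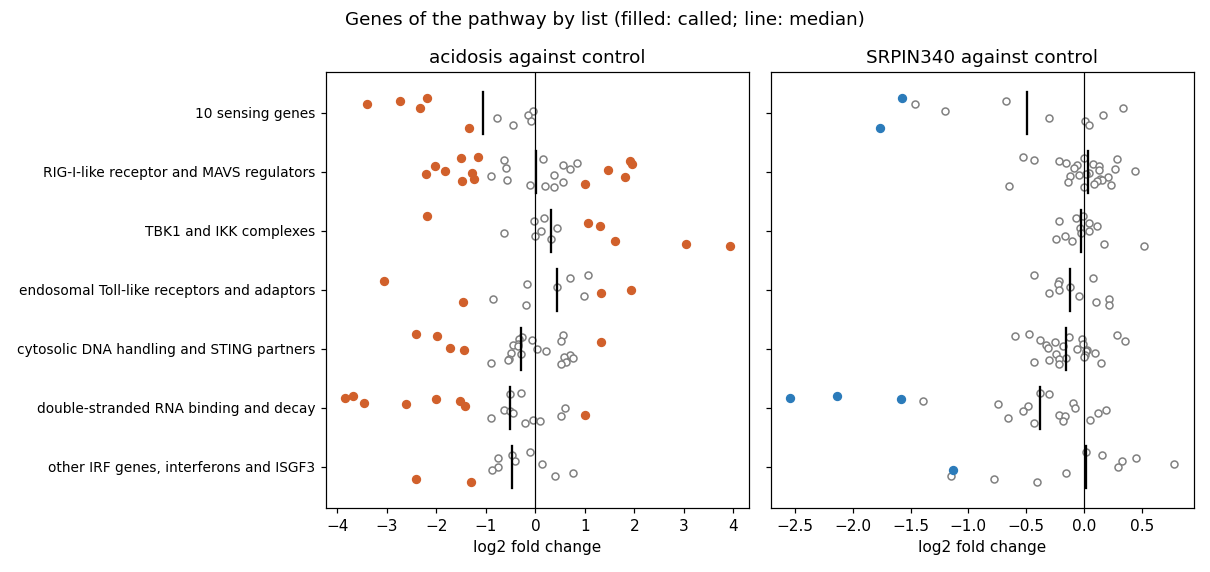
Log2 fold change of each tested gene of the 10 sensing genes and the 6 pathway lists in acidosis (left) and with SRPIN340 (right), with filled points for called genes and black lines for the list medians. Called genes lie on both sides of 0 in acidosis, and with SRPIN340 they are RIGI and IRF7 among the 10 genes, OAS1, OAS2 and OAS3, and IRF9.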

How the data were processed

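Poly(A) RNA of 7 HEK-293 samples was sequenced. According to the methods and the submitters' notes, the authors trimmed the reads (Trimmomatic 0.39, Trim Galore 0.6.6), quantified transcripts with Salmon 1.5.1 against a Gencode GRCh38 transcriptome, summed them to genes with tximport and analyzed them with DESeq2. The deposited values are expected counts per gene, not normalized between samples, and the tximport option and library strand setting are not given in the sources used here. Of 19978 genes, 19977 matched a symbol and 1951 were at 0 in every sample.

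Counts were rounded and tested in R 4.3.3 with edgeR 4.0.16 (TMM, filterByExpr, quasi-likelihood test, Benjamini-Hochberg adjustment) with all 7 samples in 1 fit. Groups followed the labels. The standard error is the log2 fold change over the root of the F statistic. The test was checked on simulated data. Replicates differed by more than sampling noise (chi-square per degree of freedom 6.85 to 12.2). CPM are TMM-scaled, positions and lengths come from GENCODE, and promoters come from RefSeq, searched with Python 3.11.15. Figures were drawn with matplotlib 3.10.9. Poisson ratios cover counting error only. Alternatives were DESeq2 1.42.0, RLE size factors, total count scaling, no filter, a minimum mean of 1 CPM, fits of 2 groups, a replicate block, no fold limit and each sample left out.

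The 10 genes, the lists and the naming rule were chosen with earlier results of these data known. Named were the 10 genes, up to 3 genes called lower and 3 higher with the largest change in acidosis per list, list genes called with SRPIN340, and the 3 most correlated genes (log2 CPM, prior count 2) of genes called in both comparisons. Some genes that this rule names are not reported here. ENSG00000288684 and BCL2L12 were named for overlapping a gene of the 10.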

Additional observations from a re-analysis of the deposited data

How the results depend on the processing

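In acidosis against control, 5 genes of the 10 were called lower under DESeq2, RLE size factors, no filter, fits of 2 groups and the replicate block and with each sample left out. The minimum mean of 1 CPM gave 4, since DHX58 was then not tested. Scaling by total count gave 7, with IRF3 (-1.03) and STING1 (-1.34) past the fold limit, and no fold limit gave 7. With SRPIN340, 2 were called lower under all of these, 3 without a fold limit, and 1 to 2 with a sample left out. Between the treatments the count of 2 lower rose to 6 with the total count alone, as the share of all tested genes rose from 19.7% to 37%, and without a fold limit it was 6 lower and 1 higher. No called value of the 10 genes changed direction in any alternative run. With the total count alone, IRF7 in acidosis against SRPIN340 turned to -0.19, and TBK1 in acidosis against control (-0.67, adjusted p = 0.0233, edgeR) and against SRPIN340 (-0.72, adjusted p = 0.0163) passed. Directions that turned when a sample was left out belonged to values that had not passed: IRF3 with SRPIN340 (-0.10 to 0.19), TLR3 with SRPIN340 (-0.13 to 0.69), CGAS in acidosis (-0.31 to 0.27), and TBK1 with SRPIN340 (-0.11 to 0.13), in acidosis (-0.41 to 0.064) and between the treatments (-0.43 to 0.053).

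Samples with the same replicate number in different groups did not deviate together (correlations -0.115 to 0.063), so the number was treated as a name. With a replicate block, the calls among all genes with SRPIN340 went from 29 lower and 19 higher to 22 and 5, TBK1 with SRPIN340 turned to -0.0025, and IFIH1 with SRPIN340 (adjusted p = 0.129) and IRF7 between the treatments (0.0959, both edgeR) no longer passed. For SRPIN340 against control, fits of the 2 groups alone gave 39 and 33 calls, no fold limit gave 228 and 114, and leaving out a sample gave 0.229 to 1.38 times as many calls in all. For acidosis against control, no fold limit gave 5081 and 4836 calls in place of 2840 and 2145. Among the pathway lists in acidosis, the total count alone raised the lower calls to 12 for double-stranded RNA binding and decay, 9 for cytosolic DNA handling and 5 for other IRF genes. It left 3 higher calls for MAVS regulators, 3 for the IKK complexes, 1 for Toll-like receptors and 0 for double-stranded RNA binding. Under that scaling 35% of all tested genes were called lower and 5.48% higher, in place of 19.1% and 14.4%. The share of higher calls in acidosis was 43.0% and with the total count alone 13.5%. The pooled counts of DHX58 (5 in acidosis), CGAS (37) and TLR3 (38) set the width of their counting intervals in acidosis. The cause of the changes was not tested.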
